A study of Homo sapiens with 35 samples.

Results

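TXNIP, ARRDC3 and ARRDC4 of the α-arrestin family were examined with the transcription factors MLXIP (MondoA), MLXIPL (ChREBP) and MLX, which are 6 of the 19665 protein-coding entries in the count table. The members were chosen by name around the lasting rise of TXNIP in these libraries, so the levels of TXNIP by day are given as a description, without a test. The libraries, 35 in all, came from 5 subcultures on each of 7 days of RPMI-8226, a long-established line of human myeloma cells. The cells of days 1, 2, 4, 6, 8 and 10 had received carfilzomib, a covalent inhibitor of the chymotrypsin-like site of the proteasome, at 750 nM for 1 h, followed by a wash and culture in carfilzomib-free medium that was replaced every 48 h. The cells of day 0 are taken here as untreated, as the methods of the study place their collection before carfilzomib, although their labels list the treatment. No day had an untreated culture of its own other than day 0, and the subcultures had been split from a single expanded culture of this line, so the p-values below measure the spread among subcultures and not among separate experiments.

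TXNIP, ARRDC3 and ARRDC4 are α-arrestins, adaptor proteins that carry PPxY motifs for HECT-type ubiquitin ligases such as ITCH and NEDD4 and that bring these ligases to membrane proteins. TXNIP binds thioredoxin and promotes the endocytosis of the glucose transporter GLUT1 (SLC2A1), and ARRDC4 is known for a like effect on glucose uptake. Transcription of TXNIP and ARRDC4 is driven by MondoA, or by ChREBP in liver and fat, which pair with MLX, sense glucose 6-phosphate and bind carbohydrate response elements, pairs of E-box-like motifs.

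The stretches before the start sites of TXNIP, ARRDC4 and MLX are shown because they hold E-box-like motifs, whereas the levels of these 3 genes took different courses. They are from the RefSeq promoter table for GRCh38.p14, in which all 6 members were found with 8 promoters, and are written 5′ to 3′ on the strand of the gene. Each covers the 250 bases before the start, at chr1:145996580-145996829 (minus strand) for TXNIP, chr15:97960453-97960702 (plus strand) for ARRDC4 and chr17:42566850-42567099 (plus strand) for MLX. Capitals mark matches to CACGTG or CACGAG on either strand.
TXNIP: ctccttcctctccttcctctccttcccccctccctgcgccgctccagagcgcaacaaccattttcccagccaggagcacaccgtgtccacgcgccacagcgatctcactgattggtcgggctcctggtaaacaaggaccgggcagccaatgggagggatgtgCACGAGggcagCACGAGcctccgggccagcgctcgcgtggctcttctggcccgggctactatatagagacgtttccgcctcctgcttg
ARRDC4: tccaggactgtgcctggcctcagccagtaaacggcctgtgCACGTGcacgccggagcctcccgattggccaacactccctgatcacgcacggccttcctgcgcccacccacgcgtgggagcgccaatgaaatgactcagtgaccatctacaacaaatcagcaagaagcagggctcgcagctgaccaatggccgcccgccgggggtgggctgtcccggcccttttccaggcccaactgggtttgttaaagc
MLX: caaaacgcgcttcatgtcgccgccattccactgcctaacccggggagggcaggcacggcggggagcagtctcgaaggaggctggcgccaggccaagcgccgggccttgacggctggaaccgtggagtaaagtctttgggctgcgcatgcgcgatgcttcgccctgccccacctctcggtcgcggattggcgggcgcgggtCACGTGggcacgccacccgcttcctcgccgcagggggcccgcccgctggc
Searched over 250 bases before and 50 after the start, CACGTG was held by 2548 of the 35116 promoters in the table (7.26%). CACGAG was held by 2380 (6.78%), and a pair of CACGNG motifs in the same orientation, spaced by 5 bases, by 20 (0.057%). TXNIP was among these 20, with its pair beginning 88 bases before the start at chr1:145996651-145996667. Pairs with the second CACGNG motif inverted were not searched. ARRDC4 held 1 CACGTG beginning 210 bases before its start (chr15:97960493-97960498) and MLX held 1 beginning 50 bases before its start (chr17:42567050-42567055). No match to these letters was found in the windows of ARRDC3, MLXIP or MLXIPL, nor in that of a second TXNIP start. A match is a description of the letters, and binding was not measured.

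Each library held 6519392 to 10962890 estimated counts, with a median of 7643975. The 7 plasma cell markers examined were SDC1, TNFRSF17, IRF4, PRDM1, XBP1, MZB1 and CD38, and each had counts among the 35 libraries. Their summed level by day lay between 1383 and 2132 CPM (counts scaled to the TMM-normalised protein-coding total of the library), and the level of each marker alone is not given. The 2 markers of T cells summed to at most 3.64 CPM, those of monocytes to at most 1.36 CPM, those of erythroid cells to at most 0.595 CPM, and the 1 fibroblast marker found to at most 0.855 CPM, whereas EPCAM and KRT8 together reached 92.6 to 119 CPM. No library held identical values to another among the 70 pairs within a day. In bulk RNA, fewer cells with a transcript and less of the transcript per cell cannot be told apart. On day 0, before carfilzomib, the cultures had their density adjusted with fresh medium, and the sources used here do not say whether the day 0 libraries were collected before or after this step. The age of the medium, younger on day 1 and close to 48 h on later days, and the adjustments of cell density on days 0, 6 and 8 moved with the day and cannot be told apart from it. No sequencing batch or date was given.

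TXNIP was the most abundant member per length on each day. On day 0 its mean level per kilobase of the canonical transcript was 125 CPM per kb, against 15.4 for MLX, 11.5 for MLXIP, 10.5 for ARRDC3, 2.63 for ARRDC4 and 0.0888 for MLXIPL. On day 10 TXNIP was at 697 CPM per kb, ARRDC3 at 23.0, MLX at 19.5, MLXIP at 13.9 and ARRDC4 at 1.20.

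TXNIP (ENSG00000265972, chr1:145992435-145996579, minus strand in GENCODE 44) stood higher from day to day through day 6 and was still above day 0 at day 10. On day 0 its 5 libraries held 327, 376, 338, 385 and 387 CPM. On day 1 they held 843, 821, 867, 897 and 791 CPM, and on day 2 they held 1478, 1068, 1042, 997 and 1408 CPM. The day 2 libraries fell into 3 close to the level of day 1 and 2 well above it, and each of these days lay above the day before without overlap. On day 4 the values were 1800, 2215, 1931, 1798 and 1996 CPM, and on day 6 they were 2111, 2272, 2802, 2682 and 2502 CPM. On day 8 they were 1832, 2060, 1838, 2347 and 2075 CPM, and on day 10 they were 1947, 1843, 2152, 2188 and 1992 CPM. Ordered by mean, the days ran 0, 1, 2, 4, 10, 8 and 6, and from day 4 onward neighbours in this order overlapped. The log2 fold changes against day 0 were 1.22, 1.73, 2.43, 2.77, 2.49 and 2.48 on days 1, 2, 4, 6, 8 and 10, each with an SE of 0.09. At day 10 the level was 5.59-fold that of day 0. The counts behind these values lay between 1891 and 18267 per library.

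**Figure D1:**
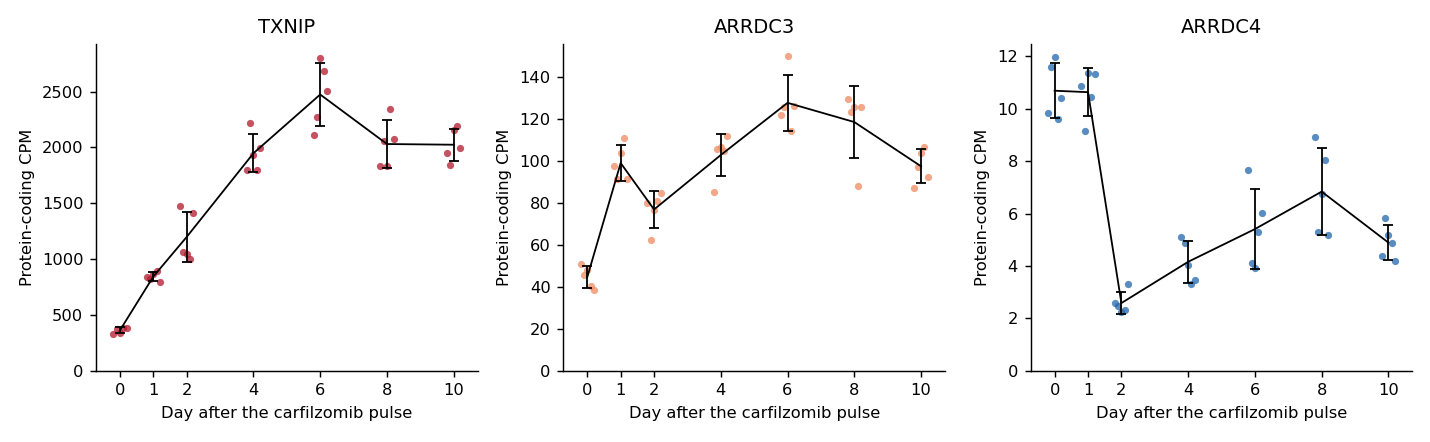
Level of the protein-coding entries of TXNIP, ARRDC3 and ARRDC4 by day after carfilzomib, in CPM. Points are the 5 libraries of a day and the black line is the mean ± SD. TXNIP went from a mean of 362 CPM on day 0 to 2474 on day 6, ARRDC3 stayed above day 0 in each library, and ARRDC4 fell after day 1 from 10.6 to 2.58 CPM.

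ARRDC3 (ENSG00000113369, chr5:91368631-91383317, minus strand), an α-arrestin known for its part in the ubiquitination of adrenergic receptors and integrin β4, was higher than day 0 on each later day. On day 0 its libraries held 51.1, 45.7, 47.9, 40.3 and 38.5 CPM, and on day 1 they held 97.5, 91.4, 104, 111 and 91.5 CPM. On day 2 they held 79.8, 62.3, 76.6, 80.8 and 84.8 CPM, below all libraries of day 1 and above all of day 0. On day 4 the libraries held 85.4, 105, 107, 105 and 112 CPM, and on day 6 they held 122, 125, 150, 114 and 126 CPM. The highest mean, 128 ± 13.4 CPM (SD, n = 5), was that of day 6. On day 8 the libraries held 130, 123, 126, 87.8 and 126 CPM, and on day 10 they held 87.1, 97.3, 104, 107 and 92.4 CPM. In each of these 6 comparisons all 5 libraries lay above all day 0 libraries. The log2 fold changes on days 1, 2, 4, 6, 8 and 10 were 1.14, 0.77, 1.19, 1.51, 1.40 and 1.12, each with an SE of 0.10. The p-values of edgeR's quasi-likelihood test, adjusted by Benjamini–Hochberg over all entries (Q), lay between 2.447e-16 for day 6 and 1.123e-08 for day 2.

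ARRDC4 (ENSG00000140450, chr15:97960703-97973833, plus strand) took another course. Its libraries held 9.84, 11.6, 11.98, 9.62 and 10.4 CPM on day 0, and 10.9, 9.13, 11.3, 10.5 and 11.3 CPM on day 1, and these days overlapped. On day 2 they held 2.58, 2.47, 2.25, 2.31 and 3.30 CPM, below every library of days 0 and 1. On day 4 they held 5.10, 4.89, 4.02, 3.33 and 3.45 CPM, and on day 6 they held 7.67, 4.10, 3.93, 5.29 and 6.03 CPM. On day 8 they held 8.91, 5.30, 6.76, 8.04 and 5.17 CPM, and on day 10 they held 4.40, 5.82, 5.17, 4.89 and 4.17 CPM. From day 2 onward all 5 libraries of each day lay below all of day 0, so a partial return from day 2 ended short of the starting level. Against day 0 the log2 fold change was -0.01 (SE 0.16, edgeR Q = 1) on day 1, -2.05 (SE 0.19, edgeR Q = 1.791e-12) on day 2, -0.65 (SE 0.17, edgeR Q = 0.00204) on day 8 and -1.12 (SE 0.18, edgeR Q = 1.846e-06) on day 10. On day 2, ARRDC4 was 4.14-fold lower than on day 0. These values rest on 15 to 74 counts per library, far fewer than those of TXNIP.

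MLXIP (MondoA; ENSG00000175727, chr12:122078756-122147344, plus strand) is the glucose-sensing partner of MLX in many tissues outside liver. It changed little in size. Day 0 libraries held 103, 89.35, 104, 89.2 and 96.8 CPM, and day 8 libraries, the highest by mean, held 148, 129, 121, 122 and 106 CPM. By day 10 they held 133, 102, 112, 122 and 112 CPM, and 4 of these 5 lay above all of day 0. The log2 fold change was 0.16 (SE 0.07, edgeR Q = 0.0414) on day 1, 0.37 (SE 0.07, edgeR Q = 1.861e-05) on day 8 and 0.27 (SE 0.07, edgeR Q = 0.00188) on day 10. The day 1 call was lost when day 0 replicate 2, 4 or 5 or day 1 replicate 1, 2 or 5 was left out (edgeR Q of 0.159, 0.159, 0.0853, 0.136, 0.093 and 0.0671). It was also lost with filterByExpr (Q = 0.0926), RLE factors (Q = 0.095) and DESeq2 (adjusted p = 0.09), and all neighbours in the order of days overlapped.

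MLX (ENSG00000108788, chr17:42567072-42573239, plus strand) is the shared partner of MondoA and ChREBP. Its protein-coding entry held 34.9, 36.2, 38.8, 35.3 and 37.2 CPM at day 0, 39.25, 42.8, 40.0, 48.9 and 52.2 CPM on day 1, and 48.5, 45.6, 49.6, 46.9 and 39.5 CPM on day 10. All libraries of days 1, 2, 4, 6 and 10 lay above all of day 0, and 4 of 5 did on day 8. The log2 fold change lay between 0.28 (SE 0.09, day 4) and 0.39 (SE 0.09, day 6), with edgeR Q of 0.00438 on day 1 and 0.002 on day 10. The sum of its entries over biotypes passed the test on none of these days (edgeR Q of 0.518 to 0.808), as described with the biotypes.

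MLXIPL (ChREBP; ENSG00000009950, chr7:73593194-73624543, minus strand) held 0 to 9 counts per library and 80 counts over all 35 libraries. It alone of the members did not pass the filter on low counts of edgeR (5 of 6 passed), and it passed the test on no day. Its log2 fold changes against day 0 had an SE of 1.05 (day 8) to 1.35 (day 1), so only a large difference could have been resolved at this depth. In GENCODE 44 it overlaps a long non-coding RNA on the same strand.

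**Figure D2:**
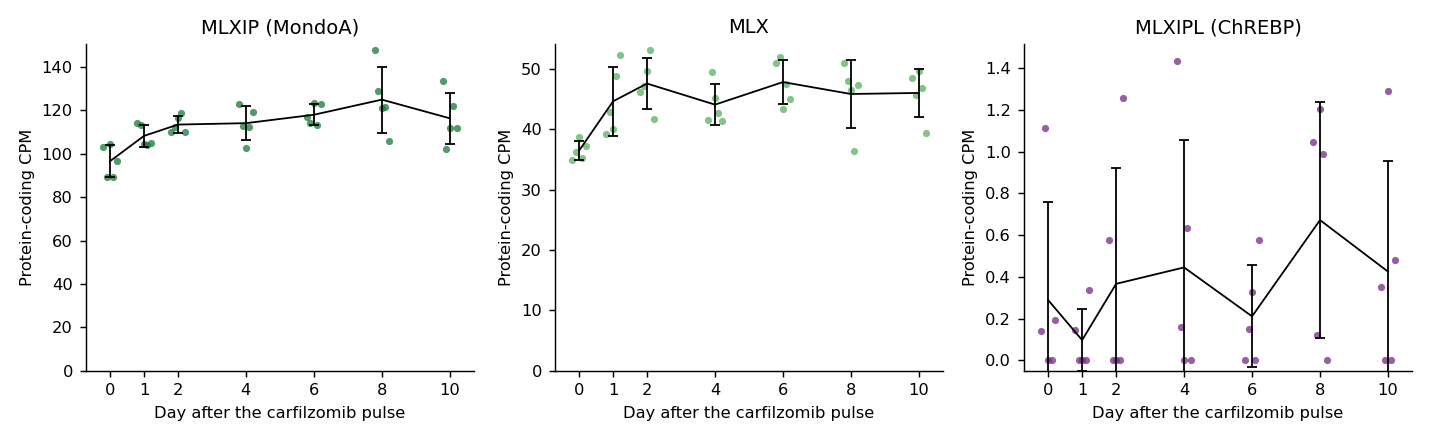
Level of the protein-coding entries of MLXIP, MLX and MLXIPL by day, in CPM, with a separate scale in each panel. Points are the 5 libraries of a day and the black line is the mean ± SD, whose lower arm is cut by the frame for MLXIPL. MLXIP stayed between 89.2 and 148 CPM, MLX between 34.9 and 53.2 CPM, and MLXIPL between 0 and 1.43 CPM.

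Of the 5 members other than TXNIP, 3 were called higher than day 0 and 0 lower on day 1 (edgeR, Q ≤ 0.05), with 0 lower also at an unadjusted p under 0.05 and by DESeq2, which called 2 higher. On each of days 2, 4, 6, 8 and 10, ARRDC3, MLXIP and MLX were called higher and ARRDC4 lower. Of all 17999 protein-coding entries tested, the shares called higher on days 1, 2, 4, 6, 8 and 10 were 25.4%, 23.2%, 19%, 17.5%, 18.2% and 16.1%. The shares called lower were 27.3%, 24.4%, 20.1%, 17%, 18.6% and 15.8%. Against these shares a call is common on each day. How many of all entries had libraries wholly above or wholly below day 0 in CPM was not counted. The lack of overlap given for single members is therefore a description. With a log2 fold change above 1 required as well, ARRDC3 was the 1 member left among the higher calls on days 1, 4, 6, 8 and 10, and 0 were left on day 2. ARRDC4 was then left among the lower calls on days 2, 4 and 10, and 0 members on days 6 and 8.

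**Figure D3:**
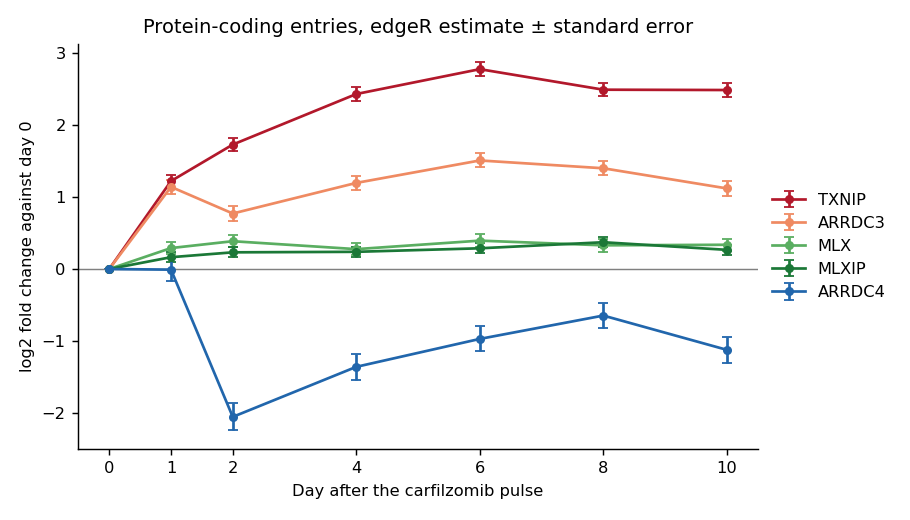
log2 fold change against day 0 of TXNIP, ARRDC3, MLX, MLXIP and ARRDC4 by day, as fitted by edgeR, with bars of 1 standard error. TXNIP and ARRDC3 were together on day 1 (1.22 and 1.14) and apart by day 6 (2.77 and 1.51), and ARRDC4 was at -2.05 on day 2. MLXIPL is left out for its low counts.

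Between consecutive days the members moved at different times. From day 1 to day 2, ARRDC4 fell by 2.04 on the log2 scale (SE 0.19, edgeR Q = 2.851e-12) and ARRDC3 fell by 0.37 (SE 0.09, edgeR Q = 0.00103), while the estimate for TXNIP was 0.51 (SE 0.09). Of all entries, 20.2% were called higher and 19.4% lower in that interval. From day 2 to day 4, ARRDC3 rose by 0.42 (SE 0.09, edgeR Q = 2.782e-04) and ARRDC4 by 0.69 (SE 0.20, edgeR Q = 0.0067), with 13.9% and 16.7% of all entries called higher and lower. From day 4 to day 6, ARRDC3 rose by 0.31 (SE 0.09, edgeR Q = 0.0152), a call lost without day 6 replicate 3 or day 4 replicate 1 (edgeR Q of 0.0797 and 0.0743). The shares of all entries were 6.09% higher and 5.98% lower in that interval. No member tested was called from day 6 to day 8 by edgeR or DESeq2, nor at an unadjusted p under 0.05 by edgeR. Of all entries, 1.03% were called higher and 1.53% lower in that interval (edgeR, Q ≤ 0.05). From day 8 to day 10, ARRDC3 fell by 0.28 (SE 0.09, edgeR Q = 0.04), beside 5.08% of entries called higher and 4.97% lower. This last call was lost when any of 7 of the 10 libraries of those days was left out (day 10 replicates 1, 2 and 5 and day 8 replicates 1, 2, 3 and 5), with edgeR Q of up to 0.111. MLXIP and MLX passed the test in no interval after day 1.

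The count table lists transcripts of a gene symbol by biotype, and 5 of the 6 members also had entries outside the protein-coding one, mainly retained intron, transcripts that keep an intron and are annotated as non-coding. ARRDC4 had none. For MLX the share of counts in the retained intron entry fell after carfilzomib. On day 0 it was 38%, 41.5%, 37.5%, 37.8% and 40.8%, with a mean of 39.1% ± 1.896 (SD, n = 5). On day 1 it was 20.5%, 22.7%, 26.9%, 15.7% and 11.5%, and on day 10 it was 14.8%, 25.0%, 13.0%, 17.03% and 22.2%. Every library of days 1 to 10 lay below every library of day 0, and the means of days 1, 2, 4, 6, 8 and 10 were 19.5%, 18.5%, 19.8%, 16.5%, 17.9% and 18.4%. Each of these 6 differences gave p = 0.00794 in an exact two-sided permutation test, the smallest that 5 libraries against 5 allow, and 0.0272 after Benjamini–Hochberg adjustment over 24 comparisons of 4 members, among them the TXNIP values, which are not reported as tests. In a fit of edgeR over all 65717 entries of any biotype with a count, added after the shares had been seen, the retained intron entry of MLX changed by -0.93 on the log2 scale on day 1 (SE 0.19, Q = 1.927e-04), by -1.26 on day 6 (SE 0.19, Q = 4.25e-06) and by -1.08 on day 10 (SE 0.19, Q = 6.431e-05).

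With the biotypes of each symbol summed, MLX did not show the rise of its protein-coding entry. The sums of days 0, 1 and 10 were 59.9 ± 3.17, 55.3 ± 3.75 and 56.4 ± 3.63 CPM (SD, n = 5 each). Its log2 fold change was -0.04 on day 1 and -0.04 on day 10 (edgeR Q of 0.658 and 0.715). The CPM of the sum are scaled to the protein-coding total, and the fit to the total of the summed entries. Shares were examined for other genes too. Over 4694 symbols with an adequate count, the share outside the protein-coding entry was below day 0 in all 5 libraries for 21.0%, 21.3%, 15.2%, 11.9%, 12.4% and 10.7% of them on days 1, 2, 4, 6, 8 and 10. The median difference over these symbols was -2.98 percentage points on day 1 and -1.34 on day 10, whereas MLX fell by 19.7 and 20.7 points. A larger fall than that of MLX was seen for 278 symbols on day 1 and 64 on day 10. The share of all counts in retained intron entries also moved with the day, from 7.15% on day 0 to 5.05% on day 1 and 6.43% on day 10, and its part in the MLX values was not tested. MLX overlaps PSMC3IP on the other strand, whose entries summed to means of 11.01, 15.6, 24.2 and 10.1 CPM on days 0, 1, 2 and 10. The strand setting of the counting is not given in the sources used here, so reads of the overlap cannot be assigned with certainty. The same holds for ARRDC3 and ARRDC3-AS1, which held 6 to 31 counts per library.

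**Figure D4:**
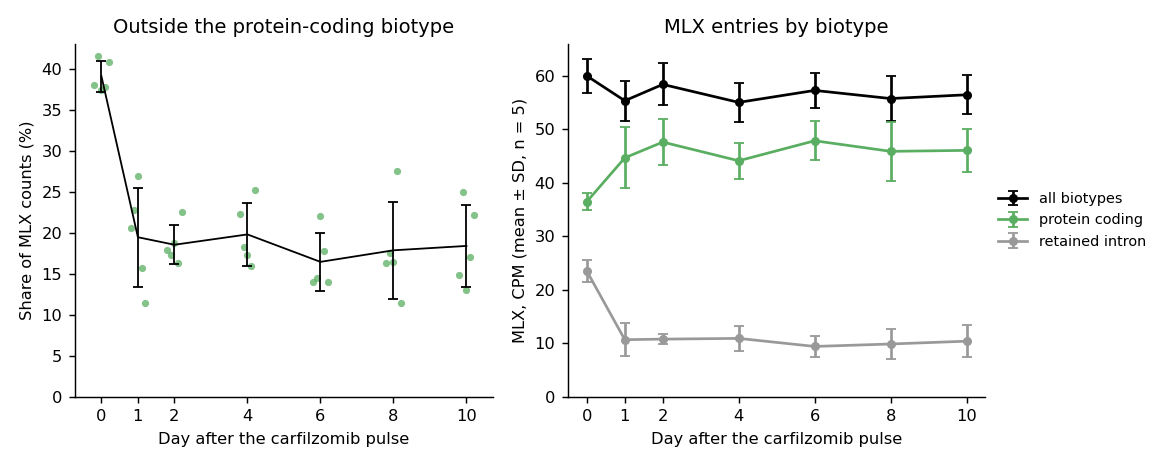
MLX by biotype. The left panel plots the share of MLX counts outside the protein-coding entry in percent by day, with points for the 5 libraries and a line for the mean ± SD. The right panel plots the mean level in CPM (± SD, n = 5) of the protein-coding entry, the retained intron entry and their sum. The share stood at 39.1% on day 0 and between 16.5% and 19.8% later, while the sum stayed between 55.0 and 59.9 CPM.

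For TXNIP the share outside the protein-coding entry was 5.91% on day 0 and 6.02% to 6.83% later, and its retained intron entry went from a mean of 131 counts per library on day 0 to 910 on day 10. For MLXIP the shares of days 0 and 4 were 6.40% ± 1.25 and 4.16% ± 0.899 (SD, n = 5 each), with all 5 libraries below day 0 (exact permutation p = 0.00794, 0.0272 adjusted), as for 15.2% of all symbols. It passed the adjusted test on no other day, and the retained intron entry of MLXIP itself had a log2 fold change of -0.29 on day 4 (SE 0.29, edgeR Q = 0.609) that did not pass. For ARRDC3 no day passed (lowest adjusted p = 0.104, exact permutation test).

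The days of the members were also compared by profile, as Pearson's r over 7 day means of log2 CPM, which share libraries and are few. TXNIP had r = 0.902 with ARRDC3, 0.932 with MLXIP, 0.841 with MLX and -0.571 with ARRDC4. These are values of the protein-coding entries, and the rise of MLX was absent with its biotypes summed. How common such values of r are among all entries was not counted. Among 10507 entries compared, the closest to TXNIP were CDKN1B (0.994), which encodes the cell cycle inhibitor p27, SERTAD2 (0.994), the AMPK-related kinase gene NUAK2 (0.993), CLPX (0.992), a subunit of a mitochondrial protease, and the transcription factor gene CREB1 (0.989). CDKN1B was at 48.1 ± 3.42 CPM on day 0 and 103 ± 4.38 on day 10, and NUAK2 at 12.5 ± 0.545 and 41.7 ± 6.42 (SD, n = 5). With all 35 libraries in place of day means, CDKN1B (0.977) and NUAK2 (0.969) remained among the first 5 and the other 3 did not. The profiles closest to ARRDC4 were those of GPATCH2L (0.985), CMTM6 (0.983) and SARAF (0.981), a regulator of store-operated calcium entry, and GPATCH2L alone remained among the first 3 over the libraries.

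Genes that work with these members were taken from 5 lists, and the largest rises and falls named are those among the genes called. On day 1, 25.4% of all entries tested were called higher and 27.3% lower, and for day 10 these shares were 16.1% and 15.8%. Of 12 other α-arrestins and HECT ligases, 5 were called higher on day 1 and 3 on day 10, and 3 were called lower on each of these days. The medians were 0.01 and -0.07 on the log2 scale, against -0.06 and -0.02 for all entries tested. Without ARRDC5, at 2 counts on day 0 and 0 on day 10, the day 10 median was -0.05. ITCH, the ligase bound by TXNIP, was at 126 ± 4.81 CPM on day 0 and 73.6 ± 3.31 on day 1, a fall by 0.77 (SE 0.06, edgeR Q = 2.091e-14). On day 10 it was at 118 ± 10.3 CPM, and its log2 fold change of -0.10 did not pass (edgeR Q = 0.234). NEDD4 had the largest fall among the called genes of the list on both days, by 0.98 on day 1 and by 0.65 on day 10. HECW1 rose from 0.626 to 4.01 CPM on day 1, which rests on 19 and 124 counts over 5 libraries. The largest rise among those called on day 10 was that of ARRDC1, another α-arrestin, by 0.46 (SE 0.10, edgeR Q = 1.869e-04).

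Of 14 genes of the thioredoxin system and of TXNIP partners, 8 were called higher on day 1 and 7 on day 10 (25.4% and 16.1% of all entries), and 3 and 0 were called lower (27.3% and 15.8%). On day 10, 0 were lower also at an unadjusted p under 0.05 by edgeR and by DESeq2, and 1 was called lower without day 0 replicate 3. The medians were 0.38 and 0.18. TXN, the thioredoxin that TXNIP binds, was at 171 ± 10.2 CPM on day 0, 412 ± 18.1 on day 1 and 177 ± 11.02 on day 10. Its log2 fold change was 1.27 (SE 0.06, edgeR Q = 1.038e-20) on day 1 and 0.05 (SE 0.06, edgeR Q = 0.622) on day 10, when TXNIP was at 2.48. PRDX1, a peroxiredoxin reduced by thioredoxin, had the largest rise among the genes called on day 1, from 196 to 954 CPM, and TXNRD3, a thioredoxin reductase, the largest fall among them, by 1.26. DDIT4 (REDD1), an inhibitor of mTORC1 whose protein binds TXNIP, had the largest rise among those called on day 10, from 196 ± 12.7 to 502 ± 30.8 CPM.

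The members of the network of MYC, MAX and MLX compete for partners and E-boxes. Of 10 in this network, 3 were called higher on day 1 and 4 on day 10 (25.4% and 16.1% of all entries). Called lower were 4 and 2 (27.3% and 15.8% of all entries). The count lower on day 10 was 1 without day 10 replicate 2, 3 or 5 or day 0 replicate 2 or 3, without factors and with biotypes summed. The medians were -0.11 and 0.09. MYC itself was at 981 ± 94.5 CPM on day 0, 1102 ± 30.1 on day 1 and 1137 ± 89.9 on day 10. The log2 fold changes of days 1 and 10 were 0.17 (SE 0.06, edgeR Q = 0.0154) and 0.21 (SE 0.06, edgeR Q = 0.00411). On day 2 MYC was lower by 0.19 (SE 0.06, edgeR Q = 0.00784). MAX, the partner of MYC, had the largest rise among the called genes on both days, from 25.3 ± 4.35 CPM on day 0 to 70.1 ± 5.04 on day 1 and 50.5 ± 2.90 on day 10. Among the called genes, MXD3 fell most on day 1, by 1.19, and MNT, a repressor that pairs with MAX and MLX, on day 10, by 0.54.

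Of 17 genes of glucose and lactate handling, 9 were called higher on day 1 and 7 on day 10 (25.4% and 16.1% of all entries). Called lower were 2 and 3 (27.3% and 15.8% of all entries). The medians were 0.63 and 0.18, and the bound given for SLC2A4 lies above both, so that they are the same with SLC2A4 at its bound. SLC2A1 (GLUT1), the transporter that TXNIP removes from the membrane, was at 50.4 ± 9.96 CPM on day 0, 88.8 ± 11.9 on day 1 and 62.6 ± 7.25 on day 10. Its log2 fold change was 0.82 (SE 0.15, edgeR Q = 1.447e-05) on day 1, and 0.31 (SE 0.16, edgeR Q = 0.137) on day 10, which did not pass. HK2, a hexokinase that makes glucose 6-phosphate, rose from 140 ± 8.86 to 174 ± 6.94 CPM on day 1 and was at 198 ± 15.1 CPM on day 10, by 0.31 and 0.49 on the log2 scale (edgeR Q of 0.0249 and 8.852e-04). SLC2A4, an insulin-responsive transporter, had 0 counts on day 0 and 16 on day 1, at least 5.05-fold higher against a floor of 3 counts over the 5 libraries, and 18 counts on day 10, at least 5.53-fold higher. The fall of HKDC1 rests on 50 counts on day 0, 16 on day 1 and 13 on day 10.

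Of 14 genes known as targets of ChREBP or MondoA other than TXNIP and ARRDC4, 8 were called higher on day 1 and 6 on day 10 (25.4% and 16.1% of all entries), and 2 and 1 were called lower (27.3% and 15.8%). The medians were 0.27 and 0.19, with 0.33 on day 1 when FGF21, at 1 and 0 counts, was left out. Over the 10 that passed the filter on low counts, the medians were 0.88 and 0.51, against 0.007 and 0.002 for all entries passing. A gene can pass this filter through a single day on which it is high, so these medians are a description. The filtered medians of days 1 and 10 were 0.14 and -0.07 for the α-arrestins and ligases and 0.50 and 0.21 for the thioredoxin list. They were -0.19 and 0.21 for the MYC network and 0.47 and 0.28 for glucose and lactate handling. ACACB, an acetyl-CoA carboxylase, had the largest rise among the called genes on both days, from 1.41 ± 0.303 CPM on day 0 to 6.60 ± 1.62 on day 1 and 2.90 ± 0.669 on day 10. RGS16, a regulator of G protein signalling, fell most among the called genes on both days, from 90.6 ± 15.3 CPM to 22.6 ± 3.63 on day 1 and 34.6 ± 4.14 on day 10, by 2.01 (SE 0.11, edgeR Q = 4.632e-20) and by 1.40 (SE 0.10, edgeR Q = 8.345e-15).

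**Figure D5:**
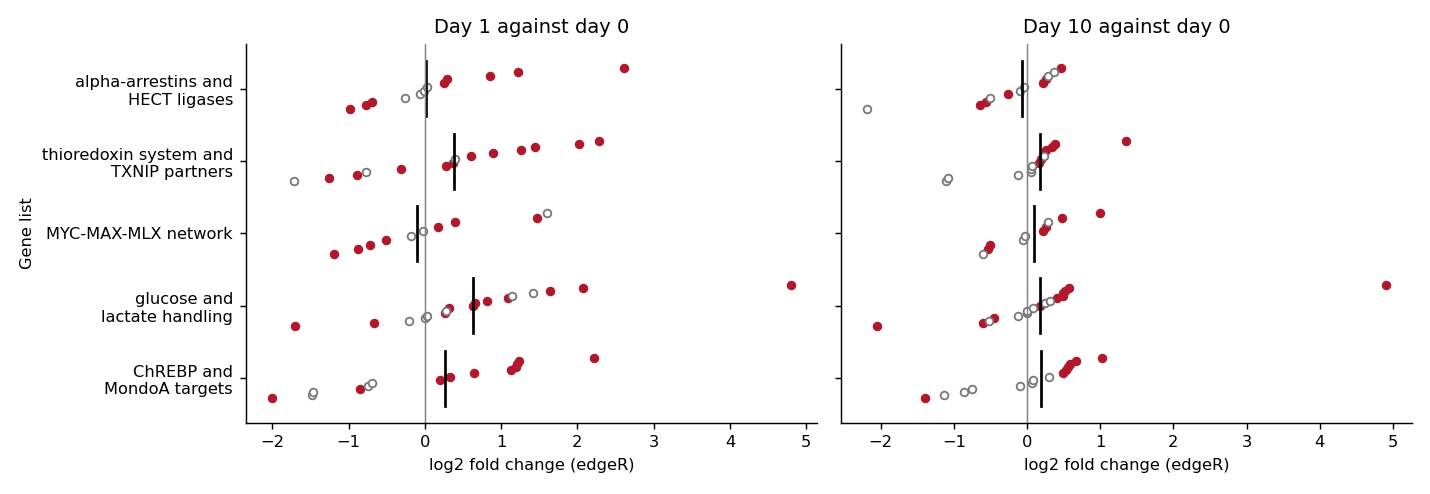
log2 fold change on day 1 and day 10 against day 0 of the genes of 5 lists, as fitted by edgeR. Filled points passed Q ≤ 0.05, open points did not, and the black bar is the median of the list. Medians lay between -0.11 and 0.63 on day 1 and between -0.07 and 0.19 on day 10, and the point near 5 is SLC2A4, which had 0 counts on day 0, so that its fitted value is no bound. The open point near -2 on day 10 is ARRDC5, at 2 counts on day 0 and 0 on day 10.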

How the data were processed

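RNA of RPMI-8226 cells was sequenced as paired-end libraries of a directional kit. The authors deposited estimated counts per gene symbol and biotype, made with Kallisto 0.44.0 against GENCODE release 28 (GRCh38.p12) with GC adjustment and summarised with tximport with adjustment for length, before any normalisation for depth. These estimated counts are whole numbers, and their totals of 6519392 to 10962890 per library set the precision.

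From them, the 17999 protein-coding entries that had a count, leaving aside 1666 without, were fitted by edgeR 4.0.16 in R 4.3.3 (quasi-likelihood test, TMM factors of 0.929 to 1.08, day as a factor over 35 libraries, no covariate), and p-values were adjusted by Benjamini–Hochberg over all tested entries. CPM are counts scaled to the TMM-normalised protein-coding total. Biotype shares were compared in symbols with at least 20 counts on average by exact permutation tests in SciPy 1.17.1. Positions are from GENCODE release 44 of the same genome.

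The members and lists were chosen with earlier results of these data known. The rule for named genes took the 6 members, the called gene with the largest rise and fall of each list on days 1 and 10, SLC2A1, TXN, ITCH, MYC and HK2, and the closest profiles, 5 for TXNIP and 3 for ARRDC4, among entries that passed filterByExpr with a mean log2 CPM above 2. Alternatives were filterByExpr, RLE or no factors, DESeq2 1.42.0, a replicate block, the 2 days of a comparison alone, median CPM, a fold threshold and each library left out, and later the sum over biotypes and the fit of all biotypes. A planned comparison of protein sequences was not run.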

Additional observations from a re-analysis of the deposited data

Results flagged for a closer look

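Of 70 groups of 5 libraries examined, 3 held a library far from the other 4, where chance gives about 1 in 20. ARRDC3 on day 4 was at 85.4 CPM in replicate 1, with the next library at 105 CPM. ARRDC3 on day 8 was at 87.8 CPM in replicate 4, with the next at 123 CPM, and the same library had the lowest MLX level of day 8, at 36.4 CPM, and the highest MLX share outside the protein-coding entry, at 27.5%. Without it the log2 fold change of ARRDC3 on day 8 against day 0 was 1.51 in place of 1.40, and that of MLX was 0.42 in place of 0.33, both past the threshold of edgeR with and without it. MLXIPL on day 0 was at 1.11 CPM in replicate 2, with the next at 0.193 CPM, which rests on 7 counts and 1 count.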

How the results depend on the processing

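Against day 0, the number of members other than TXNIP called higher was 1 on days 1, 4, 6, 8 and 10 and 0 on day 2 with an absolute log2 fold change above 1 required, and the number called lower was 0 on days 6 and 8. With the biotypes summed, chosen after seeing the data, the log2 fold change of MLX was -0.0385, 0.0238, -0.0579, -0.0347, -0.0443 and -0.0383 on days 1, 2, 4, 6, 8 and 10. Without factors, TXNIP on day 1 was at 1.33. The median difference in mean log2 CPM from day 0, over entries passing filterByExpr, was then 0.119, 0.13 and 0.105 on days 1, 2 and 4. The ratio of median CPM gave 1.51 for TXNIP on day 2. In the network of MYC, MAX and MLX, 1 gene was called lower on day 10 without factors or with biotypes summed, and 1 to 2 with a library left out (1 without day 10 replicate 2, 3 or 5 or day 0 replicate 2 or 3). In the thioredoxin list, 0 to 1 were lower on day 10 with a library left out (1 without day 0 replicate 3). With a library left out, the MLX share of days 1, 2, 4, 6, 8 and 10 differed from day 0 by -21.5 to -17.6, -21.6 to -20.0, -20.7 to -18.4, -24.1 to -22.0, -23.7 to -19.6 and -22.4 to -19.4 percentage points, and every omission gave the smallest p that 4 libraries against 5 allow, 0.0544 after adjustment. The same holds for MLXIP on day 4, at -2.56 to -1.84. Some share comparisons passed only with a library left out (exact permutation test, adjusted p = 0.0476 each). These were MLXIP on day 6 without day 6 replicate 1 and on day 8 without day 0 replicate 4, and ARRDC3 on day 6 without day 6 replicate 1. The MLXIP call of day 1 was lost with filterByExpr, RLE factors and DESeq2, and the ARRDC3 calls of day 6 against day 4 and day 10 against day 8 without factors; the last was also lost with the 2 days fitted alone. Same-numbered libraries did not deviate together (median r = 0.00226), so the numbers were not taken to pair them; with the replicate block, 3 members were called higher and 1 lower on day 10, as without it. Depth limits MLXIPL (0 to 9 counts) and ARRDC4 (15 to 74 counts) most.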
